A study of Mus musculus with 15 samples.

Results

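Kruppel-like factors were followed in cultured mouse white adipocytes that spent 0, 1 or 12 days at 31°C. The 10 genes described here are Klf2, Klf3, Klf4, Klf5, Klf6, Klf9, Klf10, Klf11, Klf13 and Klf15, chosen by name among the 18804 genes of the count table, and all 10 had enough counts to be among the 14293 genes tested. The cells were mesenchymal stem cells from the ears of C57BL/6J mice, differentiated with methylisobutylxanthine, dexamethasone, insulin and troglitazone as the labels give it (a second section of the study's methods names rosiglitazone), then with insulin and troglitazone, and kept from day 4 in medium with serum alone. This induction was shared by every group. Harvest was on day 16 for every group, and cells of day 0 were at 37°C all along. Cooling to 31°C began on day 4 for the day 12 group and on day 15 for the day 1 group. Each group had 5 libraries, 15 in all, and the sources did not state whether these came from separate mice or separate dishes, so p-values measure the spread between these libraries, which may be technical. The cells of the day 12 group were younger at the move than those of the day 1 group, so time at 31°C and the stage of the culture at the move cannot be told apart.

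Kruppel-like factors are transcription factors with a C-terminal zinc finger domain that binds GC boxes and CACCC boxes, and the related Sp proteins bind the same kind of site. In preadipocytes Klf4, Klf5, Klf6, Klf9 and Klf15 are known to favour the step to fat cells, whereas Klf2 and Klf3 hold it back. Klf10, Klf11, Klf9 and Klf13 carry an N-terminal domain that recruits the Sin3 corepressor, and Klf3 recruits CtBP proteins. Klf10 and Klf11 were first described as early TGF-beta response genes, and Klf9 and Klf15 are direct targets of the glucocorticoid receptor.

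Both Klf15 and Klf10 fell in 1 comparison each and no member rose past the limits of the test, while 9 of the 10 members passed the adjusted p in at least 1 comparison. Over all genes, 71.5% passed it at day 1 against day 0, 76.6% at day 12 against day 0 and 67.2% at day 12 against day 1. The share of all genes passing in at least 1 comparison was not counted. Klf15 was at 31.5 ± 1.02 CPM (counts made comparable between libraries by TMM, mean ± SD, n = 5) at day 0, 22.3 ± 1.43 CPM at day 1 and 15.3 ± 1.19 CPM at day 12. Klf10 was at 40.3 ± 1.77 CPM at day 0, 52.8 ± 2.42 CPM at day 1 and 27.4 ± 1.91 CPM at day 12. Klf11 was at 17.0 ± 0.369 CPM, 25.4 ± 1.56 CPM and 17.9 ± 0.370 CPM at days 0, 1 and 12. Klf4 stayed within 42.5 and 43.9 CPM in its group means. A gene is called here when its Benjamini-Hochberg adjusted p in the quasi-likelihood test of edgeR is under 0.05 and its fold change is over 1.5 (0.585 on the log2 scale), and a fold change is given on the log2 scale unless said otherwise.

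The promoters of 8 of the 10 members were in the RefSeq promoter table of GRCm38.p6, which holds 250 bases before and 50 after each start site, and Klf5 and Klf10 were not matched. The sequences of 4 members are shown, each cut to the bases before the annotated gene start. Klf11 had the largest rise of a member in value against day 0, Klf9 was, like Klf11, higher at day 1 and lower at day 12 than at day 1, Klf15 had the largest fall, and Klf4 differed least between groups. They lie at chr12:24651121-24651273 (plus strand), chr19:23140976-23141225 (plus strand), chr6:90462326-90462575 (plus strand) and chr4:55532476-55532725 (minus strand), in this order. Capitals mark each GC box (GGGCGG) and each CACCC box (CACCC) on either strand.
Klf11: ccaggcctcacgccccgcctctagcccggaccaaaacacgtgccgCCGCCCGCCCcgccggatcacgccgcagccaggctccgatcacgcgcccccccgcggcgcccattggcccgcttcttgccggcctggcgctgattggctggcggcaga
Klf9: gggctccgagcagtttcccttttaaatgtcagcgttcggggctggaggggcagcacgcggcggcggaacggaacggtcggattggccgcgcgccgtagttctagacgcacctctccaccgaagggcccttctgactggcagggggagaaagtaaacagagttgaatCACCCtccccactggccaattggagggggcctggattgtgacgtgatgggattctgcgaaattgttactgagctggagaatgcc
Klf15: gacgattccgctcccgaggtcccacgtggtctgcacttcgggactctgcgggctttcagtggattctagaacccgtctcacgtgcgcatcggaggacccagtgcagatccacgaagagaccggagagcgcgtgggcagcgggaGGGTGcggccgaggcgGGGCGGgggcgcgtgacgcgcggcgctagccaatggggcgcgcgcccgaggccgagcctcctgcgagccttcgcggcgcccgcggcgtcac
Klf4: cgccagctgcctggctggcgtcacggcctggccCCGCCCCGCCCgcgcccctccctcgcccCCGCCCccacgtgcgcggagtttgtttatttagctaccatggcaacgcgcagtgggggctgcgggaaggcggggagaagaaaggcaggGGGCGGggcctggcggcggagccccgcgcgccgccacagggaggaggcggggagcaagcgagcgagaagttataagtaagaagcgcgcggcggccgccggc

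A GC box was found in 7 of the 8 member promoters and in 35.7% of all 32851 promoters in the table, with Klf9 as the member without one. A CACCC box was in 5 of the 8 (Klf2, Klf3, Klf9, Klf13 and Klf15) against 57.5% of all promoters. In the stretches shown, Klf11 has a pair of GC boxes that overlap, Klf4 has 4 GC boxes with such a pair among them, and Klf15 has 1 GC box and 1 CACCC box. Over its whole window Klf11 has 4 GC boxes as well. Member windows held between 63.0% and 77.7% G and C, against a median of 52.7% over all promoters. The palindromic E-box CACGTG was in 4 of the 8 (Klf4, Klf6, Klf11 and Klf15) against 7.15% of all promoters. CCAAT was in 5 of the 8 against 37.4%, and TATAAA was in 0 of the 8 against 13.6%. The octamer TCCCCGCC, a mild cold element known from the promoter of Cirbp as a site of Sp1, was in 3 of the 8 (Klf3, Klf4 and Klf13) against 5.38% of all promoters, and it can share bases with a GC box. A cAMP response element (TGACGTCA) was in 0 of the 8 against 1.79%. Every motif was searched on both strands of the 300-base window, and a match describes the letters only.

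The total count per library ran from 92387376 to 133270973 for day 0, with day 1 libraries at 74430465 to 105322757 and day 12 libraries at 64648178 to 91338649. The members held from 258 counts in a library (Klf5) to 17068 counts (Klf6). Among 10226 genes, or 71.5% of those tested, the adjusted p alone was passed at day 1 against day 0, and the share was 76.6% at day 12 against day 0 and 67.2% at day 12 against day 1. Library numbers fell into a larger series of 11 libraries and a smaller one of 4 (day 0 replicate 5, day 1 replicates 4 and 5, and day 12 replicate 5), and the member calls were the same within the larger series alone. These are bulk samples, in which fewer cells of a type and less RNA per cell cannot be told apart. The scale of the values mattered at day 12. Against TMM, scaling by total counts moved the median of all genes from 0.012 to 0.21 at day 12 against day 0, scaling by Hprt and Tbp moved it to 0.27, and scaling by 4 reference genes of the study, moved it to 0.85. Of these 4 genes, B2m (-2.12) and Gapdh (-0.70) fell at day 12 against day 0, and Hprt (-0.25) and Tbp (-0.27) had an adjusted p under 0.05 but were under the fold limit. Such a scaling moves all genes of a comparison together, so by construction it leaves a value relative to that median nearly as it was. By the 4 reference genes 8 members were called higher at day 12 against day 0 (all but Klf10 and Klf15), where 9713 of all 14293 genes were, and 5 were against day 1 (Klf3, Klf4, Klf5, Klf6 and Klf13), where 10196 genes were.

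**Figure D1:**
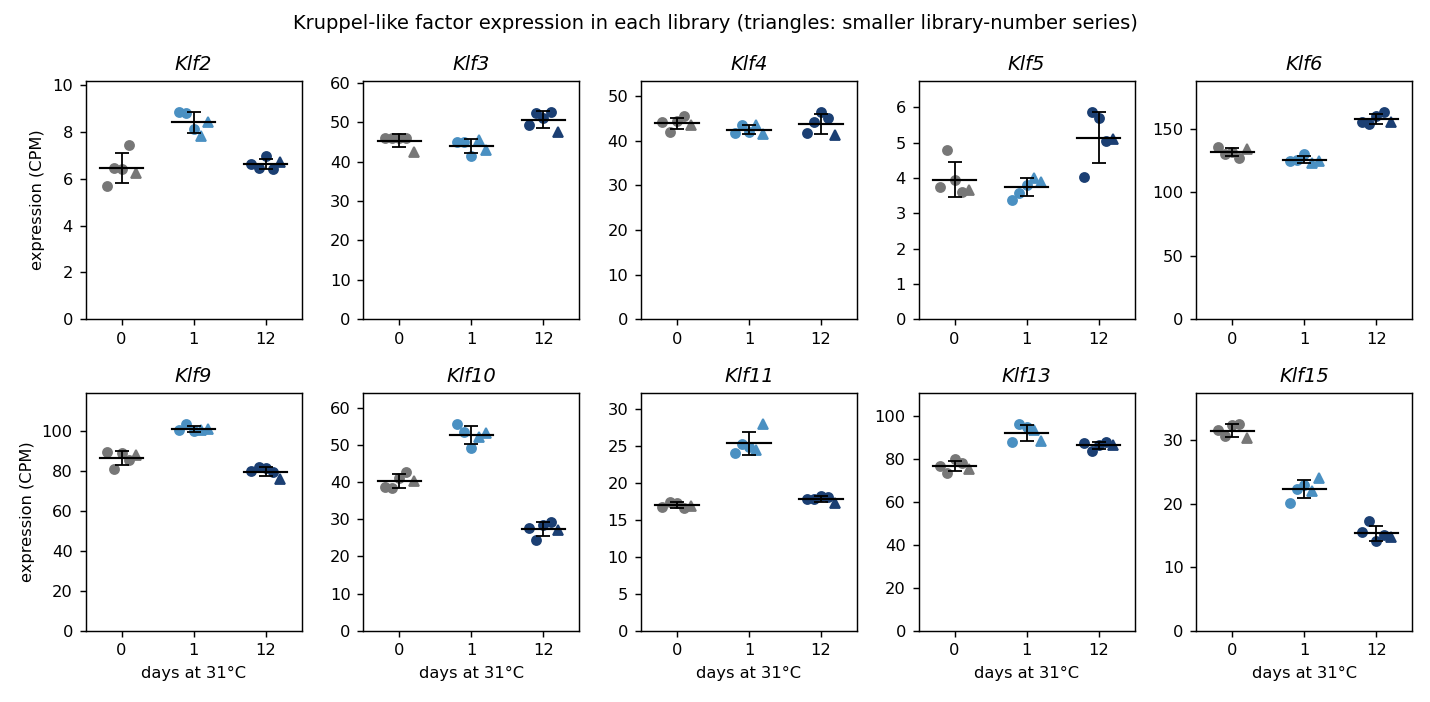
Expression of each member in each library, in CPM on a linear axis that starts at 0, against days at 31°C, where points are libraries, triangles are the libraries of the smaller number series and bars are the mean of 5 libraries with its SD. Klf15 steps down from a mean of 31.5 CPM to 22.3 and 15.3 CPM, Klf10 and Klf11 stand highest at day 1, and the Klf4 groups lie on top of each other.

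Per length of exon, Klf6 was the most abundant member and Klf5 the least. At day 0 the order ran from Klf6 at 29.98 ± 0.737 CPM per kb, Klf9 at 18.0 ± 0.721 and Klf4 at 14.4 ± 0.430 down to Klf5 at 0.758 ± 0.0951 CPM per kb. The libraries of Klf13 (10.2 CPM per kb) and Klf10 (9.65 CPM per kb) overlapped at day 0, as did those of Klf3 (4.04), Klf11 (3.92) and Klf2 (3.49 CPM per kb), and all other neighbours in the order were apart. At day 12 Klf15 had moved from place 4 to place 6, at 5.50 CPM per kb, where its libraries overlapped those of Klf10 at 6.56 CPM per kb. Dividing by the longest coding transcript in place of all exons kept Klf6, Klf9 and Klf4 in the first 3 places at days 0 and 12 but changed places below them. At day 1 it moved Klf4 from place 3 to place 5, behind Klf10 and Klf13. The summed level of the 10 members was 105.7 ± 1.84 CPM per kb at day 0, 111.4 ± 1.2 at day 1 and 103.5 ± 2.16 at day 12. Within that sum the share of Klf6 was 28.4%, 25.7% and 34.7% at days 0, 1 and 12, that of Klf15 was 10.7%, 7.16% and 5.32%, and that of Klf10 was 9.13%, 11.3% and 6.33%. A share within 1 library does not depend on the scaling of the library.

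**Figure D2:**
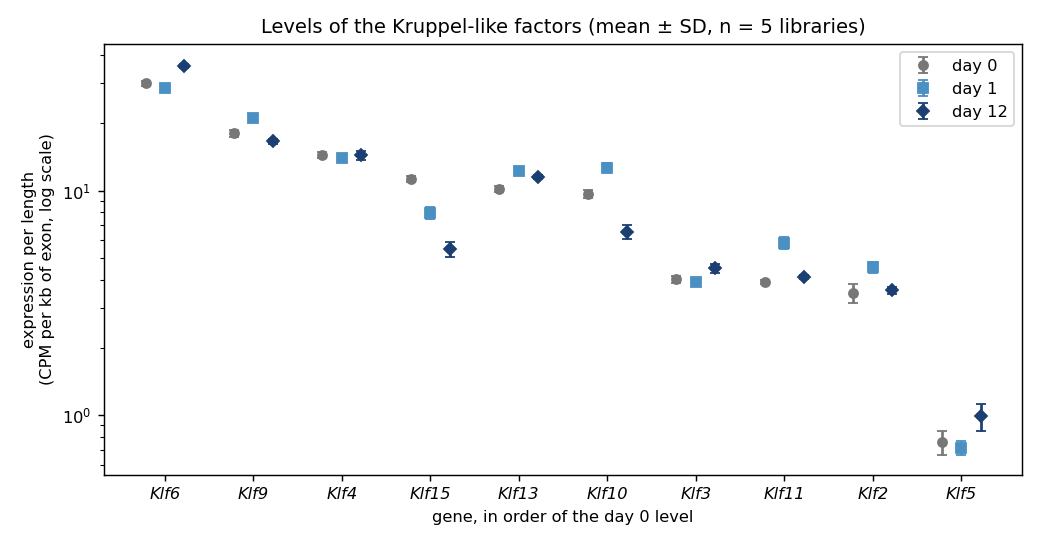
Level of each member per length, in CPM per kb of exon on a log axis, in order of the day 0 level, as the mean of 5 libraries ± SD for days 0, 1 and 12. Klf6 leads in every group, at 29.98 CPM per kb at day 0 and 35.9 at day 12, and Klf5 lies near 1 CPM per kb or below.

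In the comparison of day 1 with day 0, none of the 10 members was called in either direction by edgeR, where 21.1% of all genes tested were (7.71% higher and 13.4% lower). By adjusted p alone, 5 members were higher (Klf2, Klf9, Klf10, Klf11 and Klf13) against 35.3% of all genes, and 2 were lower (Klf6 and Klf15) against 36.2%. The groups did not overlap for 6 members, against 57.4% of all genes, with 5 members higher in every day 1 library (the same 5 as by adjusted p) against 28.6% and 1, Klf15, lower against 28.8%. The median log2 fold change of the members was 0.0894, beside -0.00884 over all genes. At day 12 against day 0, 0 members were called higher and 1 lower, where 13% and 16.2% of all genes were (29.2% in either direction), and by adjusted p alone 4 were higher (Klf3, Klf5, Klf6 and Klf13) and 3 lower (Klf9, Klf10 and Klf15), against 39.2% and 37.4% of all genes. At day 12 the groups did not overlap with day 0 for 3 members that were higher (Klf3, Klf6 and Klf13), against 33% of all genes, and 2 that were lower (Klf10 and Klf15), against 31.7%, and the share in either direction was 64.6%. At day 12 against day 1, again 0 were called higher and 1 lower, against 10.6% and 8.53% (19.1% in either direction), and by adjusted p alone 3 were higher and 6 lower, against 34.3% and 32.8%. Between days 12 and 1 the groups did not overlap for 8 members, against 52.5% of all genes, with 3 higher at day 12 (Klf3, Klf5 and Klf6) against 26.5% and 5 lower (Klf2, Klf9, Klf10, Klf11 and Klf15) against 25.9%. The members' median was 0.058 at day 12 against day 0 and -0.217 at day 12 against day 1, beside 0.0123 and 0.0092 over all genes. The comparisons with day 0 share its 5 libraries.

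**Figure D3:**
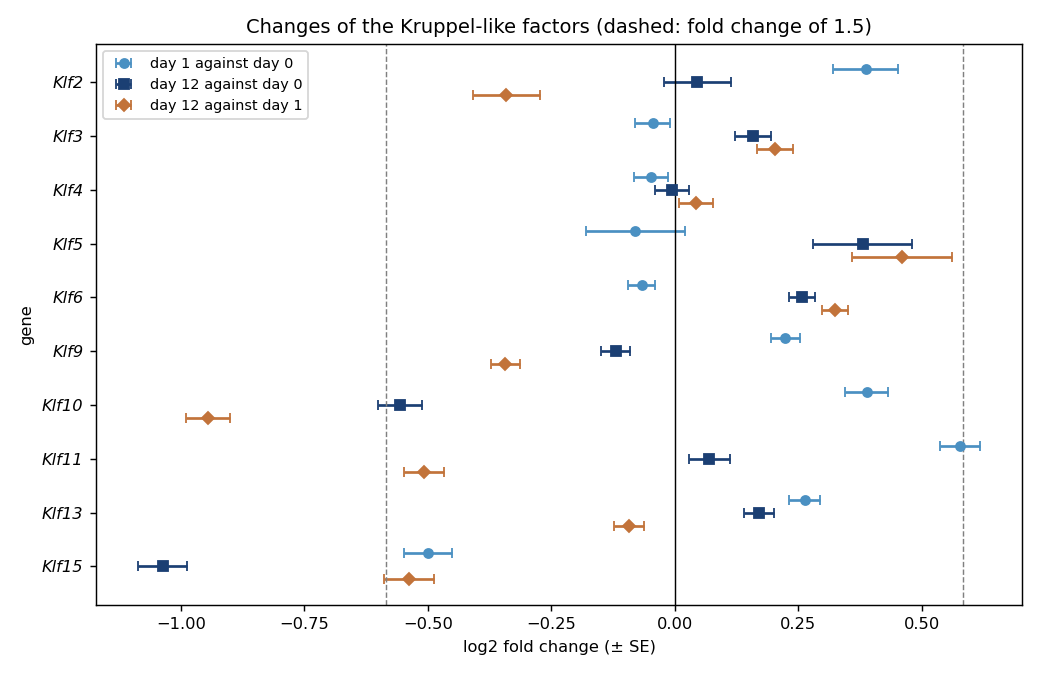
Log2 fold change of each member with its SE for day 1 against day 0, day 12 against day 0 and day 12 against day 1, with dashed lines at a fold change of 1.5. The points past the lines are Klf15 at day 12 against day 0 (-1.04) and Klf10 at day 12 against day 1 (-0.95), and Klf11 at day 1 against day 0 (0.58) lies just inside.

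Klf15 is a glucocorticoid-induced factor that drives amino acid breakdown and gluconeogenesis in liver and muscle and raises the glucose transporter Slc2a4 in fat cells (gene at chr6:90462576-90475238). Its 5 libraries held 31.5, 30.65, 32.4, 32.6 and 30.3 CPM at day 0, then 20.2, 22.3, 22.9, 21.9 and 24.1 CPM at day 1, and 15.5, 17.3, 14.2, 15.0 and 14.8 CPM at day 12. Every day 1 library lay below every day 0 library, and every day 12 library lay below both. At day 12 Klf15 fell by 1.04 ± 0.05 (SE, log2 scale) against day 0, a fold of 0.487 with an adjusted p of 2.36e-15 by edgeR. This fall held when any 1 library was left out (-1.08 to -1.01), and by the 4 reference genes the value was -0.196, with the fold limit missed. At day 1 against day 0 the value was -0.50 ± 0.05 (adjusted p = 2.16e-09), under the fold limit, and at day 12 against day 1 it was -0.54 ± 0.05 (adjusted p = 1.44e-09), also under the limit, and positive (0.254) by the 4 reference genes.

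Klf9, the other glucocorticoid target among the members and a repressor that binds Sin3, held 89.5, 81.1, 89.1, 85.3 and 87.7 CPM at day 0 (gene at chr19:23141226-23168134). At day 1 its libraries held 100.5, 103.6, 99.99, 100.2 and 101 CPM, all above day 0. At day 12 they held 79.9, 81.75, 81.5, 79.3 and 76.0 CPM, a range that reached into that of day 0. The value was 0.22 ± 0.03 at day 1 against day 0 (adjusted p = 3.3e-07 by edgeR), -0.12 ± 0.03 at day 12 against day 0 (adjusted p = 0.000832), which turned positive by total counts, by Hprt and Tbp and by the 4 reference genes, and -0.34 ± 0.03 at day 12 against day 1 (adjusted p = 3.23e-10), which turned positive by the 4 reference genes. By TMM all 3 values were under the fold limit, and by the 4 reference genes the value at day 12 against day 0 was 0.719 and called.

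Beside this pair, 15 genes of glucocorticoid action were listed, all of them tested, which are the receptor gene Nr3c1 and genes known to be induced by glucocorticoids. At day 1 against day 0, 2 were called higher and 2 lower, with a median of -0.101, beside 7.71% and 13.4% of all genes. The counts of the list at day 12 were 2 and 6, with a median of -0.446, beside 13% and 16.2% of all genes. The lists below compare with the same shares. Ddit4, an inhibitor of mTORC1, had the largest fall, with 138 ± 7.18 CPM at day 0, 88.4 ± 3.83 CPM at day 1 and 45.9 ± 1.08 CPM at day 12 (-1.59 ± 0.04 on the log2 scale between days 12 and 0, adjusted p = 1.55e-21). Tsc22d3, which encodes the glucocorticoid-induced leucine zipper, fell from 54.9 ± 2.54 CPM to 25.6 ± 1.13 CPM at day 12 (-1.10 ± 0.04, adjusted p = 6.72e-18). Pdk4, a kinase that inhibits pyruvate dehydrogenase, fell by 1.24 on the log2 scale, and the metallothionein gene Mt1 fell by 1.16. Sgk1, a serum- and glucocorticoid-regulated kinase, went the other way, from 80.7 ± 4.88 CPM at day 0 to 125 ± 4.04 CPM at day 1 and 171 ± 7.39 CPM at day 12, and was called at both days (0.63 and 1.09). Dusp1, a phosphatase of MAP kinases, was called higher at both days as well (0.94 at day 1 and 0.71 at day 12). The receptor gene Nr3c1, singled out after its values were seen, was at 0.03 ± 0.03 and -0.04 ± 0.03 against day 0, and was not called.

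**Figure D4:**
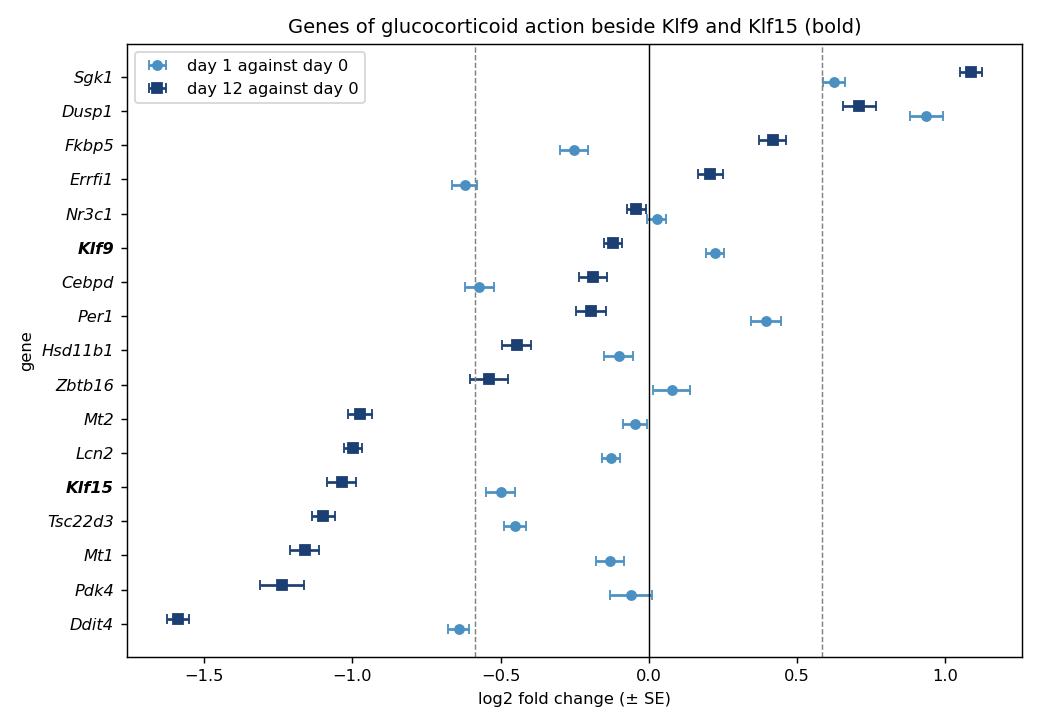
Log2 fold change with its SE for Klf9 and Klf15 (bold) and 15 listed genes of glucocorticoid action, the receptor gene Nr3c1 among them, at day 1 and day 12 against day 0, ordered by the day 12 value, with dashed lines at a fold change of 1.5. Klf15 (-1.04) lies among the genes called lower at day 12, from Ddit4 at -1.59 upward, while Sgk1 (1.09) and Dusp1 (0.71) lie past the line on the other side.

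Klf10 and Klf11 are close relatives that bind Sin3 and act as repressors downstream of TGF-beta. Klf10 (gene at chr15:38291463-38300706) held 38.8, 38.5, 41.2, 42.8 and 40.3 CPM at day 0, 55.7, 53.5, 49.1, 52.2 and 53.3 CPM at day 1, and 27.6, 24.3, 28.6, 29.3 and 27.3 CPM at day 12. The 3 groups did not overlap, with day 1 highest and day 12 lowest. It fell by 0.95 ± 0.05 on the log2 scale at day 12 against day 1 (adjusted p = 3.74e-15 by edgeR), between -0.974 and -0.905 with any 1 library left out. By the 4 reference genes that value was -0.158 and not called. Against day 0 it was at 0.39 ± 0.04 at day 1 (adjusted p = 2.15e-08) and at -0.56 ± 0.04 at day 12 (adjusted p = 4.18e-11), both under the fold limit, and the day 12 value turned positive (0.281) by the 4 reference genes.

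Klf11 (gene at chr12:24651274-24662789) held 16.8, 17.5, 17.4, 16.6 and 16.9 CPM at day 0, 24.1, 25.3, 24.9, 24.5 and 28.1 CPM at day 1, and 17.8, 17.8, 18.3, 18.1 and 17.3 CPM at day 12. Its day 1 libraries all lay above those of the other days, and day 12 overlapped day 0. The change at day 1 against day 0 was 0.58 ± 0.04, a fold of 1.493 with an adjusted p of 7.03e-12, so that it missed the fold limit by a small margin. It passed the limit by total counts (0.599) and by the 4 reference genes (0.627), and also when 1 library was left out, either replicate 2 (0.587) or 3 (0.585) of day 0, or replicate 1 (0.597), 3 (0.587) or 4 (0.592) of day 1. At day 12 against day 0 the value was 0.07 ± 0.04 (adjusted p = 0.128, 95% interval -0.016 to 0.16), but 0.909 and called by the 4 reference genes, and at day 12 against day 1 it was -0.51 ± 0.04 (adjusted p = 1.08e-10), under the fold limit and positive (0.281) by the 4 reference genes. Klf10 and Klf11 were thus both higher at day 1 than at day 0, and at day 12 by TMM Klf10 lay below its day 0 level while Klf11 overlapped it.

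Of 14 listed genes of the TGF-beta and SMAD path, 13 were tested. At day 1 against day 0, 2 were called higher and 0 lower, with a median of 0.0813, and by adjusted p alone 7 were higher and 4 lower. The ligand gene Tgfb2 rose from 199 ± 9.15 CPM to 337 ± 10.0 CPM (0.76 ± 0.03, adjusted p = 8.63e-16), with 2.14% of its exon bases under an antisense gene, and Tgfbi, a matrix protein induced by TGF-beta, rose by 0.81. At day 12 against day 0, 0 were called higher and 2 lower, with a median of 0.00884. Smad7, the inhibitory SMAD, fell from 28.2 ± 2.46 CPM to 12.8 ± 1.03 CPM (-1.14 ± 0.06, adjusted p = 2.41e-14). At day 1 Smad7 was lower too, at 21.5 ± 1.45 CPM (-0.39 ± 0.06, adjusted p = 2.58e-06), under the fold limit.

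Klf13, the fourth member with a Sin3-binding domain, was at 76.8 ± 2.49 CPM at day 0, 92.2 ± 3.94 CPM at day 1 and 86.4 ± 1.70 CPM at day 12. Against day 0 it gave 0.26 ± 0.03 for day 1 (adjusted p = 5.41e-08) and 0.17 ± 0.03 for day 12 (adjusted p = 2.64e-05), both under the fold limit, with the second called by the 4 reference genes (1.01). Day 12 against day 1 was at -0.09 ± 0.03 (adjusted p = 0.0113), and this sign turned by total counts, by Hprt and Tbp and by the 4 reference genes.

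Of 16 listed corepressors and coactivators of the family, all tested, 2 were called higher at day 1 (median -0.00617) and 2 at day 12 (median 0.272) against day 0, with 0 called lower at either day. Sin3b, a scaffold of the Sin3 corepressor that Klf9, Klf10, Klf11 and Klf13 bind, rose from 65.9 ± 2.22 CPM at day 0 to 124 ± 3.62 CPM at day 1 and 109 ± 2.80 CPM at day 12 (0.92 ± 0.03 and 0.72 ± 0.03, adjusted p = 2.89e-18 and 9.59e-17 by edgeR). The LIM domain genes Fhl2 and Fhl3 were the others, with 0.60 at day 1 and 0.81 at day 12. Sin3a, the other Sin3 scaffold listed and singled out after its values were seen, was at 85.0, 84.1 and 82.7 CPM at days 0, 1 and 12. It was not called against day 0 (-0.02 and -0.04, adjusted p = 0.687 and 0.289 by edgeR). Of 11 listed genes upstream of the family, which are ubiquitin ligases, kinases of the Erk5 path and the Mef2 transcription factors, 2 were called higher at day 1 (median 0.102) and 1 at day 12 (median 0.146), with 0 lower. Map2k5, the MAP kinase kinase of the Erk5 path that induces Klf2 and Klf4, was called at both days (0.68 and 0.59), and Siah1a, a ubiquitin ligase with 6.0% of its exon bases under an antisense gene, was called at day 1 (0.67).

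Klf2 and Klf3 are known as brakes on adipogenesis, since both repress genes that commit preadipocytes. Klf2 held 5.68, 6.47, 6.40, 7.44 and 6.23 CPM at day 0, 8.85, 8.82, 8.13, 7.84 and 8.41 CPM at day 1, and 6.64, 6.46, 6.97, 6.41 and 6.70 CPM at day 12. All day 1 libraries lay above the other groups. The value at day 1 against day 0 was 0.39 ± 0.07 (adjusted p = 1.53e-05), under the fold limit, and that at day 12 against day 0 was 0.05 ± 0.07 (adjusted p = 0.545, 95% interval -0.093 to 0.18), but 0.885 and called by the 4 reference genes. Day 12 against day 1 was at -0.34 ± 0.07 (adjusted p = 9.36e-05), under the limit and positive (0.449) by the 4 reference genes.

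Klf3 was at 45.4 ± 1.59 CPM at day 0, 44.0 ± 1.76 CPM at day 1 and 50.7 ± 2.12 CPM at day 12. Its day 12 libraries, between 47.6 and 52.6 CPM, all lay above those of the other groups. The value was 0.16 ± 0.04 at day 12 against day 0 (adjusted p = 0.000332) and 0.20 ± 0.04 against day 1 (adjusted p = 2.66e-05), both under the fold limit, though called by the 4 reference genes (0.996 and 0.991). Klf3 shares 3.59% of its exon bases with Gm20033 on the opposite strand, and since the strand setting of the counting was not given, reads of the other gene could be in its count.

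Klf4, Klf5 and Klf6 act early in adipogenesis, Klf4 and Klf5 upstream of C/EBP and PPAR-gamma, and Klf6 as a repressor of the preadipocyte gene Dlk1. Klf6 held 135.4, 129.9, 131.8, 127.2 and 133.9 CPM at day 0, 124.5, 125.5, 130.6, 123.3 and 124.5 CPM at day 1, and 155.2, 153.9, 159.9, 163.3 and 155.2 CPM at day 12. The day 12 libraries stood above all others, and days 0 and 1 overlapped. The values were 0.26 ± 0.03 at day 12 against day 0 (adjusted p = 3.7e-09), 0.33 ± 0.03 against day 1 (adjusted p = 1.12e-10) and -0.07 ± 0.03 at day 1 against day 0 (adjusted p = 0.027), all under the fold limit. By Hprt and Tbp, the day 12 value against day 1 passed it (0.661), and by the 4 reference genes the values against days 0 and 1 both did (1.1 and 1.11). At day 1 against day 0 the adjusted p by edgeR was over 0.05 by total counts (0.118), by the 4 reference genes (0.684) and in the larger number series (0.239). With some single libraries left out it was over 0.05 too (up to 0.0791), and it was under 0.05 in the other scalings, filters and models.

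Klf5, the least abundant member, held 3.73, 4.80, 3.93, 3.61 and 3.66 CPM at day 0 and 4.03, 5.86, 5.68, 5.03 and 5.11 CPM at day 12, and these groups overlapped. Its value was 0.38 ± 0.10 at day 12 against day 0 (adjusted p = 0.00136) and 0.46 ± 0.10 against day 1 (adjusted p = 0.000313), under the fold limit by TMM, though the second passed it by total counts (0.632) and both did by Hprt and Tbp (0.646 and 0.797) and by the 4 reference genes (1.22 and 1.25). Klf4 was at 43.9 ± 1.31, 42.5 ± 0.963 and 43.8 ± 2.16 CPM at days 0, 1 and 12. Its changes against day 0 were -0.05 ± 0.03 for day 1 (adjusted p = 0.224, 95% interval -0.12 to 0.024) and -0.0046 for day 12 (adjusted p = 0.909, 95% interval -0.076 to 0.067), and the second had no stable sign between libraries left out or scalings, with 0.833 and a call by the 4 reference genes.

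Of 12 adipogenic genes tied to the family, there was 1 called higher and 1 lower at day 1 (median 0.0819). At day 12 there was 1 higher and there were 5 lower (median -0.323), again against day 0. Those lower at day 12 included Adipoq, the adiponectin gene (-1.24 ± 0.03), Dlk1, which Klf6 represses (-0.90 ± 0.13), and Slc2a4, the insulin-responsive glucose transporter that Klf15 induces (-0.70 ± 0.06). Fabp4, a fatty acid binding protein of mature fat cells, rose at both days (0.76 and 0.97). Nr1h3, the liver X receptor alpha gene, was called lower at day 1 and at day 12 (-0.69 ± 0.06 at each), with 1.35% of its exon bases shared with another gene. Of 18 immediate-early genes of the serum and stress response, the class that holds early induced Kruppel-like factors, 3 were called higher and 1 lower at day 1 (median -0.0601), and the counts at day 12 were 5 and 4 (median 0.0717). Egr1, a zinc finger factor, rose from 23.9 ± 1.90 CPM to 70.7 ± 5.09 CPM at day 12 (1.57 ± 0.05, adjusted p = 7.01e-19), Egr3 rose by 1.86 and Fosb fell by 1.29 on the log2 scale. The 3 genes called higher at day 1 were other ones, each with its highest group mean at day 1.

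Of 16 other Klf and Sp genes listed, 13 were in the table and 11 were tested, with 0 called higher and 1 lower at day 1 (median -0.256). The counts at day 12 were 1 and 0 (median -0.201). Sp4, a GC box factor, fell from 10.7 ± 0.835 CPM to 5.63 ± 0.371 CPM at day 1 (-0.92 ± 0.06, adjusted p = 5.18e-12) and was at 9.29 ± 0.457 CPM at day 12. Klf8, a repressor that binds CtBP, rose from 1.46 ± 0.108 CPM to 2.61 ± 0.431 CPM at day 12 (0.85 ± 0.13, adjusted p = 1.41e-06).

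The genes most like the members that moved most against day 0 were named by Pearson correlation of log2 CPM over the 15 libraries, among 8925 genes that averaged 10 CPM or more. For Klf15 these were Ggt5 (r = 0.9893), a gamma-glutamyltransferase at 39.7, 19 and 9.33 CPM at days 0, 1 and 12, Cntnap1 (r = 0.9892) and Aldh4a1 (r = 0.9885), a mitochondrial enzyme of proline breakdown at 110, 63.5 and 34.2 CPM. Of the exon bases, 3.97% of Cntnap1 and 32.5% of Aldh4a1 are shared with another gene. For Klf11 they were Mpzl1 (r = 0.989) at 56.5, 101 and 60 CPM, Sphk1 (r = 0.9852), a sphingosine kinase at 35.1, 65.9 and 39.7 CPM, and H3f3b (r = 0.9803), a histone H3.3 gene with near-identical copies, at 519, 817 and 532 CPM. The points share their groups, so these correlations mostly restate the order of the 3 group means and are given as a description.

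Marker levels were read from the same libraries. All 8 adipocyte markers were above 1 CPM in every group, with summed levels of 5670 to 6220 CPM at day 0, 6750 to 7240 CPM at day 1 and 5480 to 6100 CPM at day 12. Against day 0, 1 of these 8 was called higher and 1 lower at day 1, and at day 12 the counts were 2 and 3. The single markers named next were chosen after their values were seen. The 8 stromal and progenitor markers summed to 1430 to 1500, 1490 to 1550 and 1300 to 1320 CPM, and the 6 smooth muscle markers to 392 to 448, 497 to 661 and 425 to 542 CPM, at days 0, 1 and 12. Acta2 and Tagln made up most of the smooth muscle sum, while 3 of its 6 markers, Cnn1 (-2.07), Myh11 (-1.74) and Des (-2.26), fell at day 12 against day 0, with a list median of -1.1. Chondrocyte markers, 6 genes that ear cartilage would express, summed to 3680 to 4420 CPM at day 0, 3930 to 4080 CPM at day 1 and 1150 to 1250 CPM at day 12. Matn1 was at 0 in all libraries of day 12, but held at most 2 counts in any library of days 0 and 1 and was not tested. Comp carried the chondrocyte sum, at 3716 ± 254 CPM at day 0 and 919 ± 37.2 CPM at day 12, whereas Col9a1 rose from 11.9 ± 1.21 to 24.5 ± 3.04 CPM and Col2a1 was at 149 ± 15.8 and 182 ± 23.9 CPM. Acan (-0.97) and Sox9 (-0.79) were called lower at day 12 against day 0 as Comp was. Of the 5 chondrocyte markers tested, 3 were called lower and 1 higher, with a median of -0.788. Macrophage markers (5 in the table) summed to 26.3 to 33.6, 42.2 to 48.3 and 30 to 34.1 CPM, with day 1 highest, as it was for the means of Klf2, Klf9, Klf10, Klf11 and Klf13. The adipocyte sum of every day 1 library was likewise above those of the other days. The stromal and smooth muscle sums also reached their highest value at day 1, unlike the chondrocyte, epithelial and endothelial sums. The macrophage sum was mostly Cd14 (20.7, 33.9 and 23.8 CPM). Cd68 (7.50, 10.3 and 5.14 CPM) and Csf1r (0.199, 0.841 and 0.562 CPM) were highest at day 1 as well. Lyz2 was at 0.933, 0.899 and 1.96 CPM, and Ptprc, which marks all leukocytes, was at most at a mean of 0.0288 CPM. The 9 epithelial and mesothelial markers summed to 8.36 to 10.6, 12.3 to 14.4 and 28.5 to 42.6 CPM, with Krt5 at 0 at days 1 and 12 and Krt14 and Wt1 at 0 at day 12, where a count of 0 allows up to 0.0464 CPM in the shallowest library by counting error alone. Krt14 and Wt1 held at most 2 counts in any library of days 0 and 1, and Krt5 at most 11 counts at day 0. The day 12 sum was mostly Msln, which rose from 0.628 ± 0.253 to 29.3 ± 5.88 CPM, and Krt8 was at 8.44 ± 0.696 CPM at day 0 and 5.71 ± 0.736 CPM at day 12. The 5 endothelial markers in the table, of a cell type in which Klf2 and Klf4 are well known, summed to at most 1.77 CPM in any library. The part of the chondrocyte, macrophage and smooth muscle levels in the results of the members was not tested.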

How the data were processed

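RNA was sequenced from 15 libraries, 5 each after 0, 1 and 12 days at 31°C. Groups came from the labels. The authors deposited raw counts per gene, which were used here and came from HTSeq (version and strand setting not given in the sources used here) from reads aligned to mm10 with TopHat 2.0.13 and Bowtie2 2.2.1, as the submitters' processing notes name them. The deposited regularized log2 values and the authors' tables of fold change and adjusted p from DESeq2 were not used.

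Genes were filtered with filterByExpr of edgeR 4.0.16 (minimum count of 10) in R 4.3.3, scaled by TMM (factors of 0.946 to 1.09) and tested with glmQLFit and glmQLFTest over all 15 libraries with no covariate. A call needed an adjusted p under 0.05 and a fold over 1.5, the thresholds of the study. SE was the log2 fold change over the square root of F. The fit was tested on simulated data, a check whose outcome is not reported here. Intervals cover the fit at 95%. The common dispersion gives a coefficient of variation of 5.25% between libraries. No 2 libraries of a group had counts that differed by less than the sampling noise.

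Members and gene lists were chosen with earlier results of these data known. Named beside the members were, per list and comparison with day 0, up to 4 called genes with the largest change, and for the members with the largest rise and fall the 3 genes with the highest correlation. Single genes named outside this rule were singled out after their values were seen. A withheld result of a single listed gene is not reported here, though counts over its list include it. Coordinates and exon overlaps came from GENCODE on GRCm38 (the build of mm10), and promoters from RefSeq. Alternatives were other scalings, other filters, DESeq2 1.42.0, adjusted p alone, a replicate block, the number series, and each library left out. Scaling by Hprt and Tbp was added after seeing the data.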

Additional observations from a re-analysis of the deposited data

Results flagged for a closer look

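Of 30 groups of member values (10 genes in 3 groups of 5 libraries), 3 had a library far from the others, where chance alone gives about 1 in 20. Klf3 was at 42.51 CPM in day 0 replicate 5, a library of the smaller number series, while the other day 0 libraries held 46.0 to 46.15 CPM. Klf5 was at 4.801 CPM in day 0 replicate 2, against 3.605 to 3.933 CPM in the others. Klf9 was at 103.6 CPM in day 1 replicate 2, against 99.99 to 101 CPM in the others.

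Klf10 was the member whose effects at day 12 and day 1 against day 0 differed past the limits of the test, with a difference of -0.946 on the log2 scale, which is the comparison of day 12 with day 1 itself (adjusted p = 3.74e-15 by edgeR). Klf10 was above day 0 in 5 of 5 libraries at day 1 and below it in 5 of 5 at day 12.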

How the results depend on the processing

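The counts of members called against day 0 at day 1 (0 higher, 0 lower), against day 0 at day 12 (0 and 1) and at day 12 against day 1 (0 and 1) were the same with DESeq2 size factors in edgeR, the DESeq2 Wald test, other filters, the number series as a covariate and the larger number series alone. The filter of a mean of at least 10 CPM left out Klf2 and Klf5, so its counts cover the other members only. Leaving out 1 library gave 0 to 1 members higher at day 1 (Klf11) and moved no other count. By total counts 1 was higher at day 1 (Klf11) and 1 at day 12 against day 1 (Klf5). By the 4 reference genes 1 was higher at day 1 and at day 12 against day 0 the counts were 8 higher and 0 lower (9713 and 643 of all 14293 genes), and against day 1 they were 5 and 0 (10196 and 255 genes). By Hprt and Tbp 1 was higher at day 12 against day 0 (Klf5) and 2 against day 1. By adjusted p alone there were 5 higher and 2 lower, 4 and 3, and 3 and 6. Over all genes called in the comparison of day 12 with day 0, the share lower was 55.6% by TMM, 35.9% by total counts, 29.8% by Hprt and Tbp and 6.21% by the reference genes.

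Signs turned by the reference genes were those of Klf3 (0.00497) and Klf4 (0.00259) at day 1, Klf4 (0.833), Klf9 (0.719) and Klf10 (0.281) at day 12 against day 0, and Klf2 (0.449), Klf9 (0.446), Klf11 (0.281), Klf13 (0.697) and Klf15 (0.254) at day 12 against day 1. Total counts turned Klf4 (0.189) and Klf9 (0.0736) against day 0 and Klf13 (0.08) against day 1, and Hprt and Tbp turned the same values (0.256, 0.142 and 0.243). Klf4 at day 12 against day 0 was 0.013 in the larger series and -0.0257 to 0.0162 with 1 library left out.

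Replicate numbers were shared between groups, and no same-number pair reached the limit of 0.1 for pairing (15 pairs, r of -0.0255 to 0.0436, median 0.0195, against a median of -0.00179 for other numbers), though 10 of 15 libraries correlated best with their own number, which is a hint from the data and not from the design. With the number as a replicate block the member calls were 0 and 0, 0 and 1, and 0 and 1, as without it. Depth limits Klf5 most, with 258 to 494 counts a library.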
